A study of Mus musculus with 9 samples.

Results

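Integrins are receptors that tie a cell to the matrix around it, and 10 of their chains that bind matrix in the vessel wall were followed here in RNA sequencing of mouse aortic arch. The 10 were chosen by name, Itga1, Itga4, Itga5, Itga7, Itga8, Itga9, Itgav, Itgb1, Itgb3 and Itgb5, and all 10 were found among the 21989 genes of the table, each once. The 9 libraries form 3 groups of 3. The control group was C57BL/6J and ate a standard diet. The model group was ApoE-/- and ate a high-fat diet for 15 weeks, so genotype and diet differ together between these groups. The high dose group shared the genotype and diet of model and was given 5.12 g/kg/day of ZCL, the plant preparation under study (the series title names Ziziphora clinopodioides Lam.), by gavage for 15 weeks. The labels give no age and no vehicle for the other groups. They also do not tie each library to its own animal, so a p-value here reflects the spread of these libraries alone. That spread includes differences in tissue content within groups, and the part of it that lies between animals is not known.

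Each integrin is a pair of an alpha and a beta chain, and the pair decides which ligand is held outside the cell. The beta 1 chain pairs with many alpha chains. Among these, alpha 1 binds collagens, alpha 7 binds laminins of the basement membrane, alpha 5 and alpha 8 bind proteins that carry an RGD motif, and alpha 4 and alpha 9 bind other sites in fibronectin, tenascin C and cell adhesion molecules. The alpha v chain pairs with beta 1, beta 3 and beta 5 and binds vitronectin, osteopontin and latent TGF beta. Inside the cell, talin and kindlin bind the beta tails and link them to actin. In the artery, smooth muscle cells carry most of these receptors, and endothelial cells, fibroblasts and leukocytes share some of them.

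Expression was given as FPKM, fragments per kilobase of gene and per unit of library size, so levels of different genes can be set side by side per length. Apoe stood at 339.9 to 1006 FPKM in the control libraries and at 18.9 to 93.7 in the other 6, so every ApoE-/- library was below every control library. The arch was recognisable by smooth muscle and endothelial genes, with Myh11 between 49.2 and 448.5 FPKM and Pecam1 between 118 and 197.6. Other tissues differed within groups. Summed FPKM of 12 heart muscle markers was 8395 to 30800 in control 1, control 2, high dose 2 and high dose 3, and 33.2 to 96.9 in the other 5 libraries. High dose 1 had the highest sum of 6 nerve and neuroendocrine markers (2164 FPKM), high dose 2 that of 8 skeletal muscle markers (10990), and model 1 that of 10 macrophage markers (6863).

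All 10 integrin genes passed the filter of at least 1 FPKM in at least 3 libraries, as did 12895 genes in all. Their mean over the 9 libraries ranged from 3.51 FPKM for Itga4 to 149 for Itgb1, the common partner, which was the highest of the 10 in every library. Next came Itga8 (54.8), Itga5 (52.8) and Itgb5 (49.98). These neighbours did not keep their order: Itga8 exceeded Itga5 in 6 of 9 libraries, and Itga5 exceeded Itgb5 in 2 of 9. Itga7 (18.9), Itga9 (13.1), Itgav (11.06), Itga1 (10.4) and Itgb3 (6.75) followed, with neighbours in the stated order in 6 to 8 of 9 libraries. The spread over libraries was widest for Itga8, whose highest value was 43.2 times its lowest, and narrowest for Itga7 at 2.14 times. Model 1 held the highest value for 6 of the 10 genes and high dose 1 the lowest for 6.

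**Figure D1:**
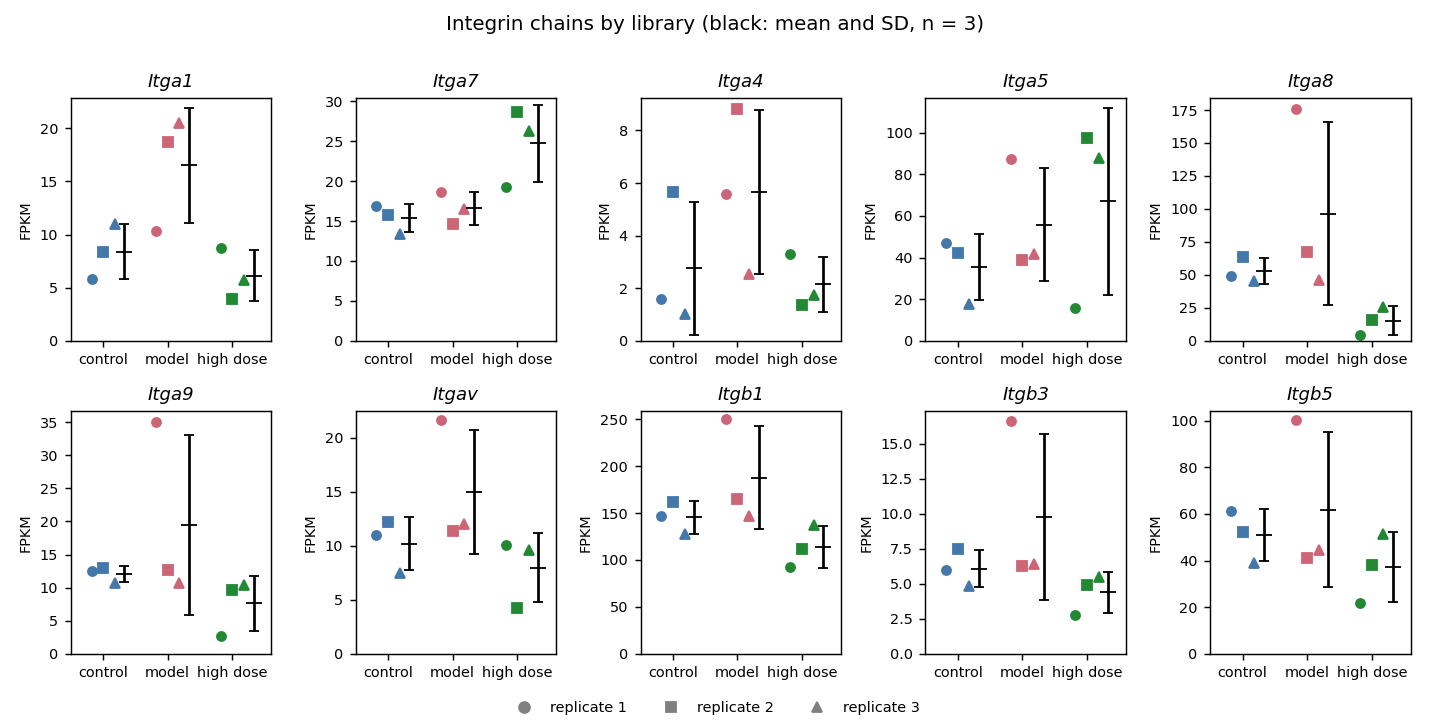
FPKM of the 10 integrin chains in each library, 1 panel a gene, with the 3 groups on the horizontal axis, a symbol for each replicate number, and the mean and SD (n = 3) in black. Itga8 lies between 4.06 and 25.7 in high dose and at 45.6 or more in all other libraries, while model 1 stands far above model 2 and 3 for Itga8, Itga9, Itgb3 and Itgb5.

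The comparison of model with control asks what genotype and high-fat diet together go with. The fitted difference was above 0 for all 10 integrin genes, with a median of 0.49 on the log2(FPKM + 1) scale, where 48.7% of all genes tested lay above 0 and 51.3% below, with a median of -0.010. None of the 10 passed limma at an adjusted p under 0.05 (0), and no gene of the table did (0% of 12895), while 1 member, Itga1, had an unadjusted p under 0.05, as did 6.37% of all genes. For 0 of the 10 did every model library lie above or below every control library, against 6.91% of all genes that were higher without overlap and 9.06% that were lower. Without control 2, 4 members were higher without overlap, Itga4, Itgav, Itgb1 and Itgb3, and 21.7% of all genes were. Without model 1, the differences of Itga9 and Itgb5 turned to -0.053 and -0.22.

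The comparison of high dose with model asks what ZCL goes with when genotype and diet are shared. Here 9 of the 10 genes were below 0 (49.9% of all genes) and 1, Itga7, above (50.1%), with a median of -0.88 on the log2(FPKM + 1) scale beside 0.00080 for all genes. In 6 of the 10 every high dose library lay below every model library, against 10.9% of all genes. These were Itga1, Itga8, Itga9, Itgav, Itgb1 and Itgb3. Itga7 lay above without overlap, as did 11.7% of all genes. The 6 lower genes were also without overlap after median-ratio rescaling and after quantile normalization, beside 11.7% and 14.6% of all genes. Itga7 overlapped after each of these scalings. An unadjusted p under 0.05 was found for 7 members, against 13.4% of all genes, but none passed limma after adjustment over all genes (0 of 12895, 0%), where the smallest adjusted p among the members was 0.214 for Itga8. In bulk tissue, fewer cells of a type and less RNA per cell cannot be told apart.

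High dose set against control gave 8 of 10 members below 0, beside 49.8% of all genes, and 2 above 0, beside 50.2%. Itga8 and Itga9 were lower without overlap, against 5.02% of all genes, and Itga7 was higher without overlap, against 3.66%. An unadjusted p under 0.05 was found for Itga7 and Itga8, and for 5.44% of all genes, and 0 of 12895 genes passed limma after adjustment (0%). Without control 3 the number of members without overlap was 7, beside 19.7% of all genes in either direction. Without high dose 1 or high dose 3 it was 5, beside 23% and 17.8%, where all libraries gave 8.68%. The 3 comparisons share libraries, model being in 2 of them, control in 2 and high dose in 2, so their values are not independent of each other.

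**Figure D2:**
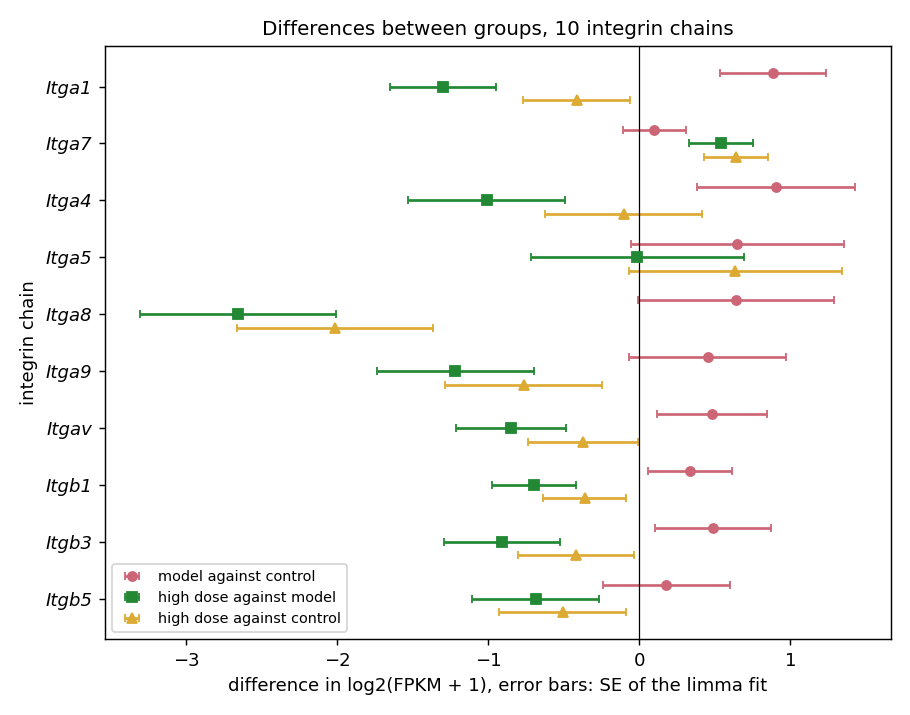
Differences between groups in log2(FPKM + 1) for the 10 integrin chains, with bars for the standard error of the limma fit and a symbol for each comparison. Itga8 has the largest difference of the 10 in high dose against model (-2.66) and against control (-2.02), and Itga7 is the only chain above 0 in all 3 comparisons.

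Among receptors for RGD proteins, Itga8 stood apart. It encodes alpha 8, the partner of beta 1 that binds nephronectin and fibronectin and is a marker of vascular smooth muscle, and lies on chromosome 2 from 12106632 to 12301922 (GRCm38, minus strand). Libraries held 48.9, 63.9 and 45.6 FPKM in control 1, 2 and 3, at 175, 67.4 and 46.4 in model, and at 4.06, 15.9 and 25.7 in high dose. Every high dose library was below the 6 others, and model 1 was high beside model 2 and 3, which lay in the range of control or just above it. Model averaged 96.4 ± 69.2 FPKM (SD, n = 3) and high dose 15.2 ± 10.8, a log2 difference of -2.66 ± 0.65 (SE; limma adjusted p = 0.214). Leaving out each library in turn gave differences between -3.17 and -1.97, and the adjusted p over all alternatives ran from 0.0761 to 0.633. Against control (52.8 ± 9.78 FPKM) the difference of high dose was -2.02 ± 0.65, with limma adjusted p = 0.832, and that of model against control was 0.64 ± 0.65 with adjusted p = 0.886. Exons of Itga8 share 372 bases with an antisense transcript on the plus strand, and whether counting used strand is not known.

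Itga5, the alpha chain of the main fibronectin receptor, took another course. On chromosome 15 (103344286 to 103366763, minus strand), its libraries held 47.1, 42.2 and 17.6 FPKM in control, 87.4, 38.6 and 41.6 in model and 15.6, 97.6 and 87.8 in high dose. High dose 2 and 3 were as high as model 1 and above the 5 remaining libraries, while high dose 1 was the lowest of the 9, so all groups overlapped. Its difference between high dose and model was -0.013 ± 0.70 (SE; limma adjusted p = 0.995) and became 0.82 without high dose 1 and 0.36 without model 1, with adjusted p over the alternatives from 0.208 to 1.00. Between model and control it was 0.65 ± 0.70 (limma adjusted p = 0.903), and between high dose and control 0.64 ± 0.70 (limma adjusted p = 0.920). Within each library the 2 RGD receptors of beta 1 can be compared directly. The ratio of Itga5 to Itga8 was 0.386 to 0.965 in control, 0.498 to 0.895 in model and 3.42 to 6.14 in high dose. Itga8 was thus the more abundant of the pair in all 6 control and model libraries and Itga5 in all 3 high dose libraries, high dose 1 included. High dose 2 and 3, with control 1 and 2, are the libraries high in heart muscle markers. The part of that tissue in the level of Itga5 was not tested.

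The bases before the start sites of Itga8, Itga5 and Itgb1 are shown because Itga8 and Itgb1 followed each other over the libraries (Pearson r = 0.94, n = 9) and Itga5 followed Itga8 less closely (r = 0.37). They are the 250 bases before the RefSeq start site (GRCm38.p6), 5′ to 3′, at chr2:12301945-12302194 on the minus strand, chr15:103366792-103367041 on the minus strand and chr8:128685404-128685653 on the plus strand. Capitals mark a GC box core, GGGCGG read on either strand.
Itga8: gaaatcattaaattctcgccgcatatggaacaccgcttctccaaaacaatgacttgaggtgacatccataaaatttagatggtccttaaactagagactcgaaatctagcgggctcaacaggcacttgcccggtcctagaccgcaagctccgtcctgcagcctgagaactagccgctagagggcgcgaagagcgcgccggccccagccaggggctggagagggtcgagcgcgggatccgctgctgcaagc
Itga5: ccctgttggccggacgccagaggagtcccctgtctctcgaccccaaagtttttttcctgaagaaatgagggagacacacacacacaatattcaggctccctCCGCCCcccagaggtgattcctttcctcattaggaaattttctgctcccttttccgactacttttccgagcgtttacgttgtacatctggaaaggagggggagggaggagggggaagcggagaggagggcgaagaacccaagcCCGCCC
Itgb1: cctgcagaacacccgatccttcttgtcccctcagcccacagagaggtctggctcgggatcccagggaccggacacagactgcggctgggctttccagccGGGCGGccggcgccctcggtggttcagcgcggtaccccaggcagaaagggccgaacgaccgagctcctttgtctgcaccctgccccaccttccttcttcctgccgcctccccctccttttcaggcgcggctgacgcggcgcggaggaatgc

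Of the 10 members, 8 had an entry in the RefSeq promoter table, and Itga7 and Itgb3 had none. Motifs were searched on both strands, and shares are of 32851 promoter windows of the same length. The GC box core GGGCGG is in 32.7% of all windows. The Smad element CAGAC is in 42.2% of them. The TATA box, searched as TATAAA, is in 12.4%. The AP-1 site, searched as TGANTCA, is in 6.75%, and the CArG box of smooth muscle genes in 1.47%. None of these motifs overlaps another in the 8 member windows. The Itga8 window held 0 matches to any of the 5. Itga5 had 2 matches to the GC box core, and Itgb1 had 1 to it and 3 to the Smad element, which also had 1 match each in the Itga1 and Itga4 windows. The Itgb5 window held 3 matches to the GC box core and that of Itga4 1, and the Itga9 and Itgav windows held 0 matches to any motif. The Itga9 window (chr9:118711442-118711691, plus strand) lies inside the gene as placed by GENCODE (118606690 to 118901003). The bases before that outer start were not searched. The TATA box, the AP-1 site and the CArG box had 0 matches in the 8 windows. These are matches of letters only and show no binding.

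Itgav encodes alpha v, the partner of beta 1, beta 3 and beta 5, and lies on chromosome 2 from 83724397 to 83806916 (plus strand). Its level was 10.99, 12.2 and 7.45 FPKM in control, 21.6, 11.4 and 11.98 in model and 10.05, 4.28 and 9.60 in high dose. The high dose libraries were below all model libraries, and high dose 1 and 3 lay within the range of control. High dose averaged 7.98 ± 3.21 FPKM against 15.0 ± 5.74 in model (SD, n = 3), a log2 difference of -0.85 ± 0.36 (SE; limma adjusted p = 0.369), and model differed from control by 0.48 ± 0.36 (limma adjusted p = 0.841). Exons of Itgav share 634 bases with the transcript Gm13684 on the other strand.

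Itga9 encodes alpha 9, a partner of beta 1 that binds tenascin C and osteopontin, and lies on chromosome 9 from 118606690 to 118901003 (plus strand). Its levels were 12.6, 13.0 and 10.7 FPKM in control, 35.1, 12.7 and 10.6 in model and 2.75, 9.69 and 10.4 in high dose. All high dose libraries were below all others, but high dose 3 and model 3 lay close together, and model 2 and 3 stood in or just below the range of control. High dose differed from model by -1.22 ± 0.52 (SE; limma adjusted p = 0.369) and from control by -0.76 ± 0.52 (limma adjusted p = 0.888). Leaving out high dose 1 or model 1 brought the difference from model to the upper end of its range, which was -1.53 to -0.70 over the libraries left out.

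Itga4, the alpha chain of the leukocyte receptor for VCAM1 and fibronectin, was the lowest of the 10 in mean. It lies on chromosome 2 from 79255426 to 79333123 (plus strand). Its level was 1.60, 5.64 and 1.02 FPKM in control, 5.58, 8.80 and 2.56 in model and 3.31, 1.37 and 1.75 in high dose, and all groups overlapped. Control 2 was high for its group, as it was in T and NK cell markers (summed FPKM 59.2, against 1.34 to 27.2 in the other libraries). Model 2, the highest for Itga4, had a sum of 11.8 for these. B cell markers summed to 188 FPKM in control 2, 122 in high dose 1 and 105 in model 2, against 7.87 to 31.8 in the other libraries. The part of either list in the result was not tested. The difference of Itga4 was 0.91 ± 0.52 between model and control (SE; limma adjusted p = 0.774) and -1.01 ± 0.52 between high dose and model (limma adjusted p = 0.408). Between high dose and control it was -0.10 ± 0.52 (limma adjusted p = 0.984) and became 0.41 without control 2. Exons of Itga4 share 1124 bases with Cerkl on the other strand, whose own level was 0.653 to 1.90 FPKM.

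Of the collagen and laminin receptors, Itga1 was below 0 and Itga7 above 0 in both comparisons of high dose, and both were above 0 in model against control. Itga1 encodes alpha 1, which binds collagen IV and other collagens with beta 1, and lies on chromosome 13 from 114953096 to 115101964 (minus strand). The libraries held 5.83, 8.33 and 10.98 FPKM in control, 10.4, 18.7 and 20.5 in model and 8.70, 3.93 and 5.75 in high dose. Model 2 and 3 were above all other libraries, and every high dose library was below every model library. Model averaged 16.5 ± 5.40 FPKM (SD, n = 3), control 8.38 ± 2.57 and high dose 6.13 ± 2.40. The difference of model from control was 0.89 ± 0.35 (SE; limma adjusted p = 0.746). With array weights, which give model 2 and 3 the most weight, it was 1.31 with limma adjusted p = 0.0434, the lowest of a range up to 1.00. High dose differed from model by -1.30 ± 0.35 (limma adjusted p = 0.250) and from control by -0.41 ± 0.35 (limma adjusted p = 0.891). Unlike most of the other chains, Itga1 was not highest in model 1. Exons of Itga1 share 685 bases with Gm49395, a protein-coding gene on the same strand.

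Itga7 encodes alpha 7, the laminin receptor chain of skeletal, heart and vascular smooth muscle, on chromosome 10 from 128933818 to 128958282 (plus strand). FPKM values of Itga7 were 16.9, 15.8 and 13.4 in control, 18.6, 14.6 and 16.5 in model and 19.3, 28.7 and 26.2 in high dose. All 3 high dose libraries were above the 6 others, high dose 1 by a small margin over model 1. High dose averaged 24.7 ± 4.84 FPKM, model 16.6 ± 2.03 and control 15.4 ± 1.78 (SD, n = 3). The difference was 0.54 ± 0.21 from model (SE; limma adjusted p = 0.351) and 0.64 ± 0.21 from control (limma adjusted p = 0.832). Muscle markers of other tissues varied beside it. The sum of heart muscle markers was 30800, 8395 and 42.1 FPKM in control 1, 2 and 3, 96.9, 53.2 and 72.4 in model and 33.2, 10860 and 18710 in high dose. High dose 2 and 3, which hold the highest Itga7 values, are thus among the 4 libraries high in heart muscle, and control 1 and 2 are the others. Skeletal muscle markers summed to 10990 FPKM in high dose 2, 330.8 in high dose 3 and 98.2 in high dose 1, against 17.1 to 465.4 in the other libraries. The part of either tissue in the level of Itga7 was not tested.

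Itgb1 encodes beta 1 and lies on chromosome 8 from 128685654 to 128733200 (plus strand). Its level was 146, 162 and 127 FPKM in control, 251, 165 and 147 in model and 92.5, 111 and 138 in high dose. High dose libraries were below all model libraries and overlapped with control at control 3 and high dose 3. Model averaged 188 ± 55.3 FPKM and high dose 114 ± 22.7 (SD, n = 3), a log2 difference of -0.70 ± 0.28 (SE; limma adjusted p = 0.352), and model differed from control by 0.34 ± 0.28 (limma adjusted p = 0.854). The ratio of Itgb1 to the sum of the 7 alpha chains was 1.007 to 1.19 in control, 0.708 to 0.981 in model and 0.689 to 1.45 in high dose. That sum leaves out alpha chains outside the members, such as Itga6 (mean 25.6 FPKM) and Itga3 (13.9). It counts Itgav in full, which also pairs with beta 3 and beta 5. The ratio thus depends on the chains chosen.

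Itgb3 and Itgb5 encode the beta chains that pair with alpha v in receptors for vitronectin. Itgb3 (chromosome 11, 104608000 to 104670476, plus strand) also pairs with the platelet chain alpha IIb. Libraries held 5.99, 7.47 and 4.81 FPKM in control, 16.6, 6.27 and 6.43 in model and 2.74, 4.91 and 5.49 in high dose, with high dose below all model libraries but overlapping with control. The difference of high dose from model was -0.91 ± 0.38 (SE; limma adjusted p = 0.365). The 6 platelet and megakaryocyte markers, Itga2b for alpha IIb among them, summed to 4.55 to 11.9 FPKM in high dose, below model (13.3 to 18.8) without overlap, and to 7.63 to 16.8 in control. Of these, Itga2b stood at 2.99 to 9.98 FPKM over all libraries, Treml1 at 0.442 to 4.03, Gp9 at 0.472 to 3.75, Pf4 at 0.208 to 1.66, Ppbp at 0.0922 to 0.603 and Gp1bb at 0 to 0.383. Of the 4 that were tested, Itga2b and Gp9 were lower without overlap between high dose and model, beside 10.9% of all genes. Pf4, Ppbp, Gp1bb and Treml1 overlapped between these groups, and Pf4 was highest in high dose 3. Gp9 had a log2 difference of -1.34 ± 0.27 between high dose and model (SE; limma adjusted p = 0.172), and Pf4 -0.23 ± 0.38 (limma adjusted p = 0.800). The part of platelet RNA in the level of Itgb3 was not tested.

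Itgb5 (chromosome 16, 33829665 to 33949338, plus strand) was 6.02 to 10.2 times as abundant as Itgb3 in every library. Its level was 61.4, 52.5 and 39.0 FPKM in control, 100.2, 40.9 and 44.6 in model and 21.6, 38.2 and 51.5 in high dose. All groups overlapped, and only model 1 was far from the rest at the upper end. The difference was -0.68 ± 0.42 between high dose and model (SE; limma adjusted p = 0.465) and 0.18 ± 0.42 between model and control (limma adjusted p = 0.967). The ratio of Itgb5 to Itgb3 was 6.02 to 6.93 in model, below control (7.03 to 10.2) and below high dose (7.77 to 9.38) without overlap.

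Shares within a library do not depend on the library total. Between high dose and model, 3 of the 7 alpha chains had shares without overlap, Itga7, Itga8 and Itga9, where 5 of the 7 had levels without overlap. Itga8 made up 33.9% to 42.7% of the summed FPKM of the 7 alpha chains in control, 30.9% to 49.5% in model and 6.37%, 9.85% and 15.4% in high dose 1, 2 and 3. Itga7 made up 15.7% to 30.3% in high dose, above control (9.81% to 12.6%) and model (5.27% to 10.97%). Itga9 made up 4.32% to 6.21% in high dose, below control (8.09% to 10.1%) and model (7.08% to 9.90%). The share of Itga5 was 52.5% and 60.5% in high dose 3 and 2, but 24.4% in high dose 1, within the range of control and model (16.5% to 32.8%). High dose 1 was instead rich in Itga7, Itgav and Itga1, at 30.3%, 15.8% and 13.6%. Model and control overlapped in the share of each of the 7 chains. Among the beta chains, Itgb1 held 68.2% to 79.2%, and all groups overlapped.

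**Figure D3:**
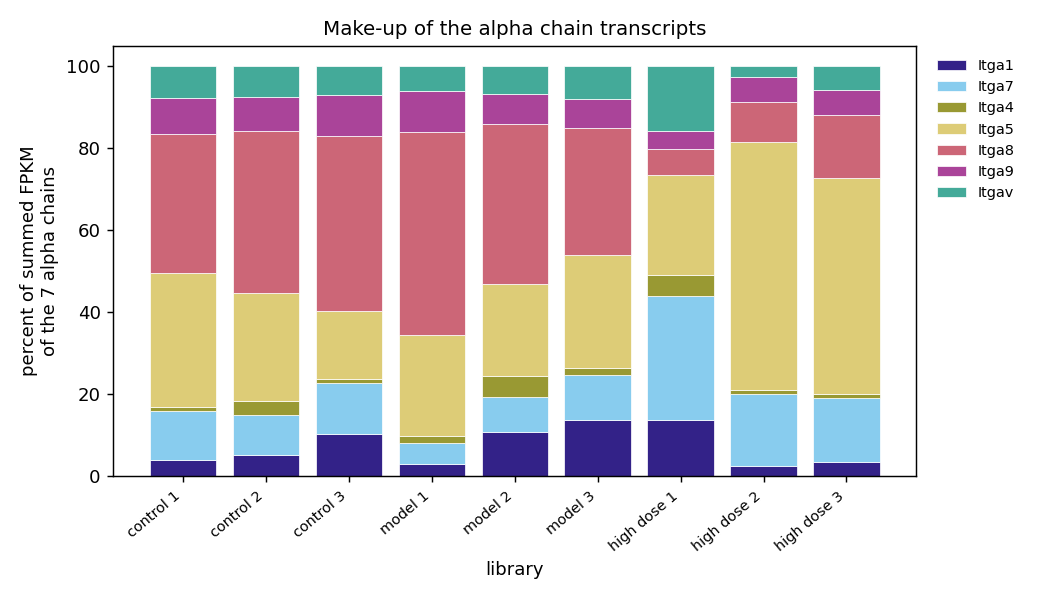
Share of each alpha chain in the summed FPKM of the 7 alpha chains, 1 stacked bar for each of the 9 libraries. Itga8 takes between 30.9% and 49.5% in the control and model libraries and between 6.37% and 15.4% in the high dose libraries.

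Integrin chains outside the 10 were read as a list of 16, of which 11 were tested. The list includes, among others, chains of leukocyte, platelet and basement membrane receptors. In model against control 10 of the 11 lay above 0, beside 48.7% of all genes, and 5 were higher without overlap, beside 6.91%, with a median log2 difference of 0.62. Itgam and Itgb2, which encode the chains of the leukocyte receptor Mac-1, averaged 37.1 ± 36.5 and 70.6 ± 42.5 FPKM (SD, n = 3) in model and 3.27 ± 1.49 and 9.79 ± 8.22 in control. Their log2 differences were 2.79 ± 0.68 and 2.73 ± 0.77 (SE), both with limma adjusted p = 0.688. In high dose against model 9 of 11 lay below 0, beside 49.9% of all genes, and 2 without overlap, Itga6 and Itga2b, beside 10.9%, with a median of -0.68. Itga6, a laminin receptor chain, stood at 28.7 to 59.99 FPKM in model, 9.34 to 17.4 in high dose and 17.0 to 26.7 in control, and its difference between high dose and model was -1.45 ± 0.34 (limma adjusted p = 0.202). In high dose against control 7 of 11 lay above 0, beside 50.2% of all genes. Without overlap were 0 of the 11, beside 3.66% of all genes higher and 5.02% lower. None of the 11 passed in any comparison (0).

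Ligands of these receptors were read as a further list. Of 42 ligand genes listed, 40 were tested, and 0 passed limma in any comparison. In model against control 31 lay above 0 (median 0.44) and 11 were higher without overlap, beside 48.7% and 6.91% of all genes. In high dose against model 34 lay below 0 (median -0.65) and 10 were lower without overlap, beside 49.9% and 10.9% of all genes. Fn1, fibronectin, the ligand of alpha 5, alpha 8 and alpha 4, stood at 44.2, 52.0 and 40.5 FPKM in control, 533, 325 and 198 in model and 14.3, 24.9 and 143 in high dose. Every model library was above all others. Tnc, tenascin C, a ligand of alpha 9, averaged 15.2 ± 8.69 FPKM in model, 2.43 ± 1.05 in control and 4.30 ± 1.57 in high dose (SD, n = 3). Model exceeded control by 2.15 ± 0.41 on the log2(FPKM + 1) scale (SE; limma adjusted p = 0.688). Thbs1, thrombospondin 1, had 2.79 ± 0.71 in the same comparison (limma adjusted p = 0.688). Fn1 and Postn, the periostin gene, had -3.08 ± 0.74 and -2.24 ± 0.60 between high dose and model (limma adjusted p = 0.211 and 0.245).

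Npnt, nephronectin, the ligand that alpha 8 is best known for, stood at 29.6, 43.4 and 26.9 FPKM in control, 81.7, 34.0 and 23.1 in model and 2.75, 21.9 and 12.0 in high dose. As with Itga8, every high dose library was below the 6 others, and high dose 1 was the lowest and model 1 the highest. Its difference between high dose and model was -1.99 ± 0.67 (SE; limma adjusted p = 0.308) and that between high dose and control -1.69 ± 0.67 (limma adjusted p = 0.863). Spp1, osteopontin, a ligand of alpha v and alpha 9, stood at 4.50, 87.2 and 1.30 FPKM in control, 2792, 213.9 and 895 in model and 35.7, 157 and 1755 in high dose. Model was above control without overlap, and high dose 3 stood within the range of model. Vcam1, a ligand of alpha 4, stood at 7.43 to 28.9 FPKM in control, 18.2 to 142.7 in model and 13.2 to 86.6 in high dose. Col1a1, a collagen I chain, stood at 30.0 to 75.0 FPKM in control, 101 to 499 in model and 11.2 to 330 in high dose, with model above control without overlap. Edil3, an RGD protein of the matrix, stood at 0.219 to 6.11 FPKM over all libraries. Col4a1, a collagen IV chain, was 102.7 to 121 FPKM in model and 51.8 to 92.9 in high dose, without overlap, and 65.7 to 114 in control. Lama2, a laminin chain, and Vtn, vitronectin, were low throughout, at 1.96 to 8.56 and 1.79 to 18.6 FPKM.

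The proteins that bind the integrin tails formed the last list. Of 39 adaptor and signalling genes 38 were tested, 26 above 0 in model against control (median 0.15, beside 48.7% of all genes) and 23 below 0 in high dose against model (median -0.14, beside 49.9%), and 0 passed. Talin 1, Tln1, stood at 33.5 to 54.1 FPKM in control, 41.6 to 58.6 in model and 30.5 to 38.3 in high dose, the last without overlap with model. Kindlin 2, Fermt2, stood at 63.0 to 86.1, 73.7 to 90.3 and 48.2 to 72.7 FPKM in the same order, also without overlap between model and high dose. Fermt3, the kindlin of blood cells, was lower at 3.12 to 26.6 FPKM over all libraries, and Ilk, integrin-linked kinase, stood at 56.9 to 135. Nedd9, a docking protein at focal adhesions, averaged 19.1 ± 2.41 FPKM in model, 9.98 ± 3.41 in control and 6.95 ± 0.655 in high dose (SD, n = 3). Model was above all other libraries, and the log2 difference of high dose from model was -1.34 ± 0.24 (SE; limma adjusted p = 0.159) and that of model from control 0.91 ± 0.24 (limma adjusted p = 0.688). Lpp, also on this list, had -1.14 ± 0.32 between high dose and model (limma adjusted p = 0.256). Sharpin, an inhibitor of beta 1 integrin activation, had 0.78 ± 0.23 in the same comparison (limma adjusted p = 0.274). Itgb1bp2, a beta 1 binding protein of striated muscle, was at 39.3 to 217 FPKM in the 4 libraries high in heart muscle markers and at 0.136 to 2.08 in the other 5 (-4.04 ± 1.88 between model and control, limma adjusted p = 0.761). Tln2, a talin of muscle and brain, had -0.88 ± 0.54 in that comparison (limma adjusted p = 0.791). Git1, a scaffold at focal adhesions, had 0.51 ± 0.23 between high dose and model (limma adjusted p = 0.373), and Lims2, a partner of Ilk, -0.50 ± 0.22 between high dose and control (limma adjusted p = 0.888).

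Markers of cell types were measured beside the integrins. All 8 smooth muscle markers lay below 0 in high dose against model (median log2 difference -0.97), 1 of them without overlap beside 10.9% of all genes, and their summed FPKM was 480, 3021 and 1215 in high dose 1, 2 and 3, against 1864 to 4586 in model and 1678 to 3293 in control. Macrophage markers summed to 562 to 2958 FPKM in high dose, 1451 to 6863 in model and 221 to 731 in control, and fibroblast markers to 729 to 2621, 880 to 1630 and 739 to 3184. Endothelial markers summed to 349 to 680, 585 to 695 and 598 to 686 FPKM in the same order, and their mean on the log2(FPKM + 1) scale was 4.59 to 5.426 in high dose, below model (5.435 to 5.78) and control (5.46 to 5.68) without overlap. No marker of these 4 lists was at 0 in any library, although Cldn5, an endothelial tight junction gene, stood at only 0.238 to 1.39 FPKM. Red cell markers, 6 in number, summed to 2693 to 21260 FPKM in high dose, below model (21370 to 64110) without overlap, and to 8840 to 15940 in control. Haemoglobin genes took 0.567% to 4.59% of summed FPKM in high dose, 4.95% to 14.3% in model and 1.99% to 3.69% in control. Nerve and neuroendocrine markers summed to 6.97 to 2164 FPKM in high dose, above model (0.359 to 2.64) without overlap, and to 64.2 to 530.5 in control. The part of these lists in the integrin differences was not tested.

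**Figure D4:**
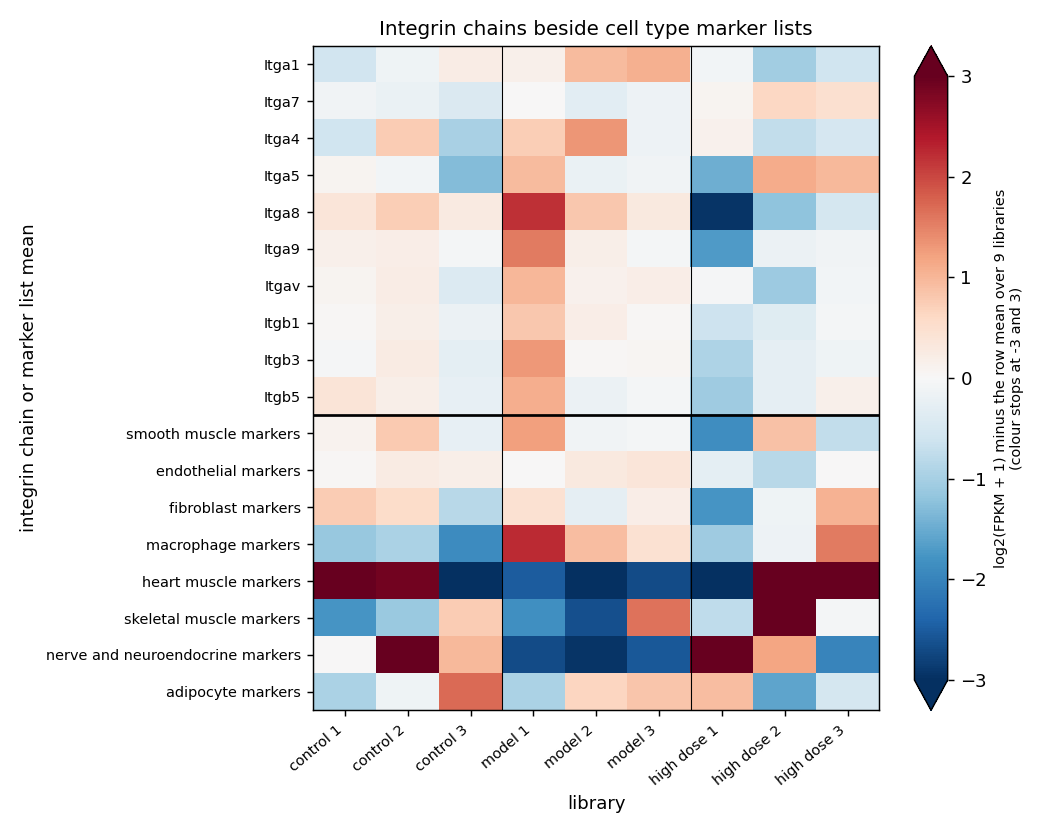
Each row is an integrin chain, or the mean of a marker list, as log2(FPKM + 1) minus its mean over the 9 libraries, and each column a library. Smooth muscle markers are lowest in high dose 1 (list mean 4.89) and highest in model 1 (7.97), as are Itga8 and Itga9, but are high in high dose 2 (7.62), where Itga8 is low.

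When each library was set relative to its own smooth muscle list mean, a scaling chosen after seeing the data, 2 members were without overlap between high dose and model. Itga8 was lower, as were 0.062% of all genes (8 of 12895), and Itga5 was higher, as were 12.5%. This scaling adds the same 0.94 to the difference of every gene between high dose and model. With it the differences of Itgav, Itgb1, Itgb3 and Itgb5 came to between 0.026 and 0.25, that of Itga5 to 0.92, and that of Itga8 was -1.72 ± 0.93 (SE; limma adjusted p = 0.520). On this scale Itga8 overlapped between high dose and control, where 0.0465% of all genes were lower and 6.20% higher without overlap, Itga5 among the latter. In model against control Itgb3 was higher without overlap, as were 2.91% of all genes, and 6.51% were lower. The outcome for Itga8 depended on the reference, as it overlapped between high dose and model per Myh11 and per Acta2, another smooth muscle gene. Per Myh11, the smooth muscle myosin heavy chain, it was 0.0824, 0.0529 and 0.254 in high dose 1, 2 and 3, 0.391, 0.394 and 0.252 in model and 0.280, 0.198 and 0.237 in control. High dose 3 thus lay at the level of model 3, and high dose 1 and 2 below all others. Per Acta2, high dose 3 (0.0634) lay above model 3 (0.0553) and control 2 (0.0503), and high dose 1 and 2 again lay below all others. Itga5 per Myh11 was 0.316 to 0.869 in high dose, above model (0.195 to 0.226) and control (0.0913 to 0.270). Whether smooth muscle RNA in control 2 and high dose 2, the libraries high in airway epithelium markers, came from the arch was not tested.

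**Figure D5:**
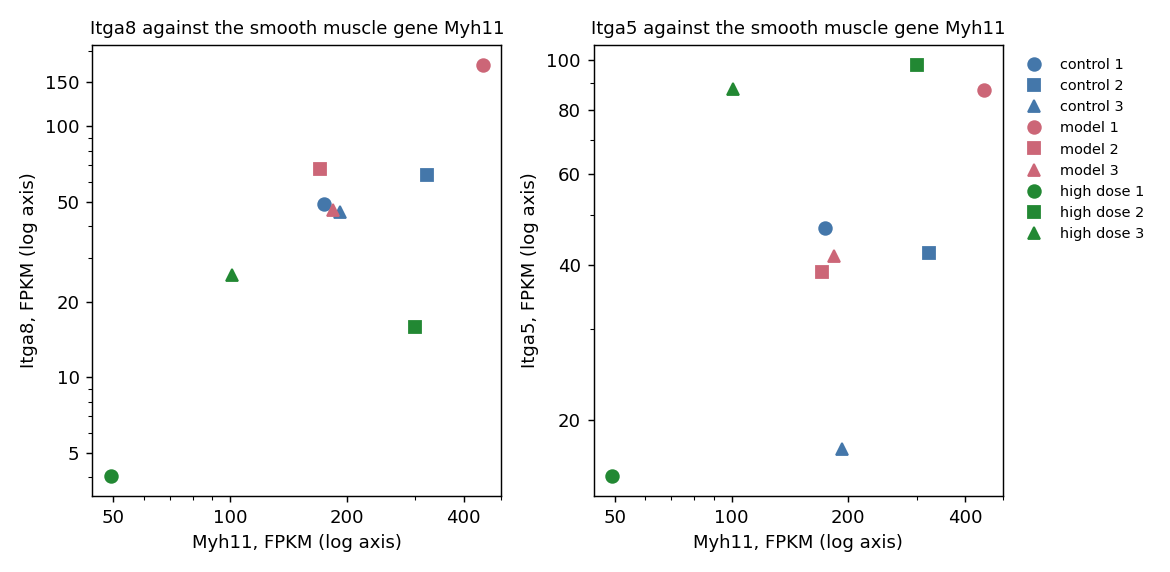
Itga8 (left) and Itga5 (right) against Myh11 in the 9 libraries, in FPKM on log axes, with colour for the group and a symbol for the replicate number. High dose 2 has 300.5 FPKM of Myh11, close to control 2 (323), but 15.9 of Itga8 against 63.9, while its Itga5 is 97.6 against 42.2. These libraries also hold the highest sums of airway epithelium markers, 22390 and 8506 FPKM. The part of airway tissue in their Myh11 was not tested.

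Over the 9 libraries the chains fell into a group that varied together and a few that did not, given here as a description, since all points share the same libraries. Pearson r of log2(FPKM + 1) was 0.87 to 0.97 for every pair among Itga8, Itga9, Itgb1, Itgb3 and Itgb5. Itga7 was the least like of the 10 for each of 8 others, with r from -0.71 with Itga1 to -0.036 with Itgb5, and its closest member was Itga5 (r = 0.66). Among all tested genes, Itga8 was most like Ltbp1, Col18a1 and Cald1 (r = 0.98, 0.98 and 0.98), Itgb5 most like Myocd, Gja5 and Sfrp2 (0.97, 0.96 and 0.96), and Itga9 most like Sfrp2, Fblim1 and Gabra3 (0.99, 0.98 and 0.98). Itgb3 was most like Specc1, Actn1 and Pawr (0.996, 0.98 and 0.97) and Itgb1 most like Pawr, Col18a1 and Tmem132a (0.98, 0.98 and 0.97). Itga5 was most like Loxl3, Il13ra1 and Creb3l1 (0.98, 0.98 and 0.97), Itga7 most like Nfatc2ip, Mt2 and Serpina3n (0.97, 0.94 and 0.93), and Itga1 most like Dcun1d3, Meox2 and Txlng (0.98, 0.97 and 0.97). Itgav was most like Ccdc88a, Lrrcc1 and Ankrd12 (0.98, 0.97 and 0.96) and Itga4 most like Tk1, Rc3h2 and Stk10 (0.96, 0.95 and 0.94).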

How the data were processed

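The authors deposited 1 table of FPKM values for 21989 genes and 9 libraries, scaled by gene length and library total. The submitters' processing notes name GRCm38.p5 and mm10. The aligner, the counter and its strand setting: not given in the sources used here. Columns AS, HD and Contorl were matched by name and number to the model, high dose and control titles. Steps between values under 0.2 FPKM put relative depth between 56.3% (control 2) and 100% (model 1), and absolute depth is unknown, so no counting interval is given. Differences were tested with limma 3.58.1 (R 4.3.3) on log2(FPKM + 1), all 9 libraries in 1 fit, trended empirical Bayes, two-sided, Benjamini-Hochberg adjusted over 12895 genes with at least 1 FPKM in at least 3 libraries. That scale understates the change of low genes. The procedure was tested on simulated data. All 10 members are named. From each list, the text names ligands and adaptors listed for the members' roles and up to 2 genes of smallest p in each direction without overlap. For likeness it names the 3 genes of highest correlation. Gp1bb, Gp9, Ppbp, Treml1, Cldn5, Cerkl, Itga3 and Apoe were named outside this rule, with their values seen. Members and lists were chosen with earlier results of these data known. Positions are from GENCODE M21. Alternatives were another pseudocount, other filters and scalings, array weights, the 2 groups alone, a replicate block, a heart muscle covariate, fewer libraries and a smooth muscle reference.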

Additional observations from a re-analysis of the deposited data

How the results depend on the processing

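Of 597 member values under alternatives, 571 kept their direction and their side of the threshold, and 1 passed it, Itga1 between model and control with array weights (1.31). Part of the 571 was fixed in advance. Other filters, the replicate block, the 2 groups alone and leaving out a library of the third group cannot change a member's difference. As no member passed with the main settings, keeping the side of the threshold meant only not passing. With array weights Itga7 and Itgb5 were -0.067 and -0.32 between model and control, Itga5 was 0.55 between high dose and model, and 684 and 6 genes of the table passed in these comparisons. Relative to the smooth muscle list mean, Itga7 was -0.040 between model and control. That scaling shifts every gene alike, by 0.94 in high dose against model and 0.79 in high dose against control. On it, high dose against model gave 0.92 for Itga5, 0.083 for Itgav, 0.24 for Itgb1, 0.026 for Itgb3 and 0.25 for Itgb5. High dose against control gave 0.38 for Itga1, 0.69 for Itga4, 0.030 for Itga9, 0.43 for Itgav, 0.43 for Itgb1, 0.38 for Itgb3 and 0.29 for Itgb5. There 80, 305 and 15 genes passed in model against control, high dose against model and high dose against control. In the same order 1, 2 and 1 members were without overlap, beside 9.41%, 12.6% and 6.24% of all genes. In only the 5 libraries low in heart muscle genes, where control 3 and high dose 1 stand alone and are assumed to vary like model, Itga4, Itga5 and Itgav were 1.10, -0.16 and 0.39 between high dose and control, and 591 and 229 genes passed in high dose against model and against control. The latter sets 1 library against 1 on the spread of model, so it has no replicate check of its own. With no filter 1 gene passed in each of these 2 comparisons, and with only the 2 groups compared 1 passed in high dose against model. After quantile normalization 1 member, Itgb3, was higher without overlap between model and control, as were 10.7% of all genes. The cause was not tested.

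Leaving out 1 library at a time, Itga9 and Itgb5 ranged from -0.053 to 0.76 and from -0.22 to 0.41 between model and control, both turning without model 1. Itga5 ranged from -0.47 to 0.82 between high dose and model, turning without model 1 and without high dose 1, and Itga4 from -0.45 to 0.41 between high dose and control, turning without control 2 and without high dose 2. Genes passing in high dose against model ranged from 0 to 46, the latter without high dose 3. Members without overlap ranged from 0 to 4, from 7 to 9 and from 3 to 7 in the 3 comparisons, counts that cannot fall when a library is removed. The share of all genes without overlap ranged from 19.5% to 36.5%, from 26.4% to 39.4% and from 13% to 23%, against 16%, 22.6% and 8.68% with all libraries. A mean of at least 5 FPKM leaves Itga4 untested. Same-numbered libraries did not deviate together, their correlations running from -0.52 to 0.31, and with the replicate block 0 genes passed in each comparison and no call changed. With 3 libraries a group, precision is limited.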

Other observations

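The laminin receptor chains Itga6 and Itga7 stood in opposite order in model and high dose. The ratio of Itga6 to Itga7 was 1.54, 4.11 and 2.17 in model 1, 2 and 3, 1.00, 1.25 and 1.99 in control and 0.834, 0.326 and 0.662 in high dose, so that every high dose library was below the 6 others. Against model this was fixed by the levels, Itga6 being lower and Itga7 higher without overlap. The leukocyte chain Itgb2 stood at 0.156 to 0.510 of the level of Itgb1 in model, above control (0.0352 to 0.119) without overlap, and at 0.0673 to 0.299 in high dose. Itga3, another laminin receptor chain, which epithelial cells carry, stood at 9.15 to 20.9 FPKM with all groups overlapping and a log2 difference of 0.078 ± 0.34 (SE) between high dose and model (limma adjusted p = 0.935).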
